A study of Mus musculus with 16 samples.

Results

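The skeletal myosin heavy chain genes Myh1, Myh2, Myh3, Myh4, Myh7 and Myh8 were followed across 16 libraries of mouse myofiber RNA. The members were chosen by gene symbol, without regard to their level. Of these 6 genes, 5 were found among the 17387 symbols that all 4 deposited tables share (23222 symbols occur in at least 1 table). Myh7, the slow myosin, was not analysed here. Bulk RNA-seq was made from isolated fibres of the extensor digitorum longus (EDL), which lies in the front of the lower leg and lifts the toes, after the mononucleated cells clinging to them had been taken off. All mice were male C57BL/6. Young controls and young runners were 4 months old, and old controls and old runners 22 months. Runners had 5 weeks of voluntary wheel running, and the labels give the other mice as controls. Each of the 4 groups had 4 libraries, called here by the column names of the deposited tables (Yc4, Yc5, Yc7 and Yc8 for young controls, Y1ex to Y4ex for young runners, Oc1 to Oc4 for old controls, O1ex to O4ex for old runners). No label ties libraries to separate animals, so p-values measure the spread between libraries, which may be technical in part.

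Myosin heavy chain is the motor of the thick filament. Its head binds actin and splits ATP, and its rod packs with other rods into the filament, so the isoform that a fibre makes sets how fast it can shorten. In the adult mouse, fibres are typed by the chain they hold: Myh7 in slow type I fibres, Myh2 in fast oxidative IIA fibres, Myh1 in IIX fibres and Myh4 in the fastest, most glycolytic IIB fibres. Myh3 and Myh8 encode the embryonic and perinatal chains of developing and regenerating muscle. The EDL is built almost wholly of fast fibres. Endurance training is known for moving fast fibres along the order IIB, IIX, IIA. The comparisons asked how these transcripts differed between runners and controls at each age, and between ages.

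The genes of the fast and developmental chains lie side by side on chromosome 11 and are all read from the plus strand. In mm10 with the GENCODE M21 annotation the order is Myh3 (67078300 to 67102291), Myh2 (67171027 to 67197517), Myh1 (67200052 to 67224575), Myh4 (67238029 to 67260446) and Myh8 (67277124 to 67308634). Antisense genes on the minus strand overlap 2 of them, 9430073C21Rik at the end of Myh2 (67195680 to 67199234) and Myhas across Myh1 (67211256 to 67237573). The kits named in the labels do not mark strand, so reads of an antisense gene cannot be told from reads of its partner where they overlap. 9430073C21Rik had 0 to 103 reads per library, and Myhas was not analysed here. Myh7 lies apart, on chromosome 14.

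The coding sequences are close copies of each other, which bears on how surely a read can be given to 1 gene. The longest open reading frames encode 1942 amino acids in Myh1 and in Myh2, 1939 in Myh4, 1937 in Myh8 and 1940 in Myh3. Coding bases of Myh1 were 91.1% identical to Myh2 and 90.2% to Myh4, and those of Myh2 and Myh4 88.2% to each other. Myh8 was 88.0% to 89.3% identical to these 3, and Myh3 80.3% to 81.1% identical to the other 4. Of all stretches of 50 bases in the longest coding transcript, 26.1% in Myh1, 26.7% in Myh2, 18.6% in Myh4 and 19.9% in Myh8 occurred unchanged in another of the 6 genes, against 3.66% in Myh3. At 100 bases the shares were 9.46%, 9.17%, 3.85%, 5.17% and 0%. The longest run that Myh1, Myh2 and Myh4 hold in common is 140 bases, coding bases 1549 to 1688, in the part that encodes the motor head. It is shown because a read from it cannot be assigned to 1 of the 3.

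Myh1, Myh2 and Myh4 shared run: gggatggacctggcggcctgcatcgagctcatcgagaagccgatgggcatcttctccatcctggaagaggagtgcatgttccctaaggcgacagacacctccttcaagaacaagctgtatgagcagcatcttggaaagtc

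How the authors' counting treated such reads is not given in the sources used here, so all values below are uncertain by the reads that fell in shared stretches, and the low genes Myh2 and Myh8 most of all. A limit on reads wrongly given to Myh2 came from Yc4, in which 21 Myh2 reads stood beside 358075 Myh4 reads and 26714 Myh1 reads. In Oc3, 20 Myh2 reads stood beside 593370 Myh4 reads. These counts do not limit the reads of shared stretches that may have been left uncounted, and they cover these libraries only.

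Promoters are shown because the 3 adult fast genes neighbour each other while their levels lay far apart. Each is the 150 bases before the RefSeq start site (GRCm38.p6, plus strand, 5′ to 3′), with capitals for matches to a TATA box (TATAAA), an E-box (CANNTG, bound by MyoD family factors), a CArG box (bound by serum response factor) and a MEF2 site.

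Myh4, chr11:67237662-67237811: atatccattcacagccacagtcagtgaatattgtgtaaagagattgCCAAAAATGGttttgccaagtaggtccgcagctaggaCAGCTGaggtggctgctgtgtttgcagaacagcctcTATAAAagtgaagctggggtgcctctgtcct

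Myh1, chr11:67199952-67200101: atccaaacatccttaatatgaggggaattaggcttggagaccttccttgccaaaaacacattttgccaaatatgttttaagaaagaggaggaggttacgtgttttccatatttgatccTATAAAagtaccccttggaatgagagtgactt

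Myh2, chr11:67170877-67171026: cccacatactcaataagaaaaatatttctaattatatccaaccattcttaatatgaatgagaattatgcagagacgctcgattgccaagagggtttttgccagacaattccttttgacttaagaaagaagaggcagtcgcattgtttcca

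Myh8, chr11:67276974-67277123: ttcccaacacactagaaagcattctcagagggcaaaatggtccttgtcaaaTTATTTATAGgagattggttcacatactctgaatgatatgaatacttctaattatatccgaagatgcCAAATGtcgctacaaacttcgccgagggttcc

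Myh3, chr11:67078150-67078299: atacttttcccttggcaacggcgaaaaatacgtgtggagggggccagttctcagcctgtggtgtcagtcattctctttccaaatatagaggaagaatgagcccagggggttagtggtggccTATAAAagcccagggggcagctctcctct

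Both strands were searched. Myh4 held a CArG box (-104 to -95 from the start), an E-box (-67 to -62) and a TATA box (-31 to -26). Myh1 held a TATA box at -32 to -27 and Myh3 one at -29 to -24, with no match to the other 3 motifs. In Myh8 a MEF2 site at -99 to -90 contained a reversed TATAAA (-96 to -91), and an E-box lay at -32 to -27. None of these motifs matched in the Myh2 window, which ends at its RefSeq start (67171027). Bases after that start were not searched. Of 32851 promoter windows of the same length, 47.7% held an E-box, 7.57% TATAAA on either strand, 1.67% a MEF2 site and 0.916% a CArG box. A NFAT core (GGAAA, in 37.6% of windows) matched once in Myh1 (-48 to -44), once in Myh2 (-6 to -2) and at 2 places in Myh3. The bases before this match are alike in Myh1 and Myh2. The Myh2 window may therefore stop short of the part that holds TATAAA in Myh1. The MEF3 motif TCAGGTT (2.03% of windows) matched in none of the 5. The RefSeq start of Myh4 (67237812) lies before the GENCODE start. That of Myh1 (67200102) lies after the GENCODE start (67200052), so the end of the Myh1 window lies within the GENCODE gene.

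Libraries held 30.7 to 67.4 M assigned reads (M, 1e6; median 46.9 M), and 12402 to 16049 genes had a read in each. The 8 markers of EDL fibres, Myh1 and Myh4 among them, had reads in every library. Yc4 and Oc3 stood apart in Myh2 and O1ex in Myh2 and Myh3, as described with the values. Over 10424 genes, each library's deviation from the gene mean followed exon length to a different degree, from a Spearman rho of -0.32 to 0.38. The medians of rho were -0.15 in old controls, 0.23 in old runners, 0.11 in young controls and 0.24 in young runners. By limma, 12 of 9379 genes passed an adjusted p of 0.05 for running in old mice (7 higher, 5 lower; 11 and 12 with each library centred on its median, and 9 and 15 after quantile normalisation) and 81 of 10624 for running in young mice (30 higher, 51 lower).

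Levels were compared between genes as normalised reads per kilobase of exon, that is, reads divided by a size factor that puts the 16 libraries on 1 scale and by the length of the gene's merged exons. Myh4 was above Myh1 in 16 of 16 libraries and Myh1 above Myh2 in 16 of 16. Myh2 was above Myh8 in 14 of 16, the exceptions being Yc4 and Oc3, and Myh8 above Myh3 in 12 of 16. The merged exons of Myh8 (11772 bases) and Myh2 (7137 bases) are longer than their longest coding transcripts (6149 and 6083 bases). Their levels per kilobase are therefore lowered against Myh4 (merged exons of 6016 bases) and Myh1 (6353 bases). Together the 5 genes took 0.868% to 2.59% of all assigned reads in young controls, 2.65% to 3.95% in young runners, 1.32% to 3.13% in old controls and 2.22% to 3.42% in old runners. The 2 groups of young mice did not overlap in this share, and those of old mice did.

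**Figure D1:**
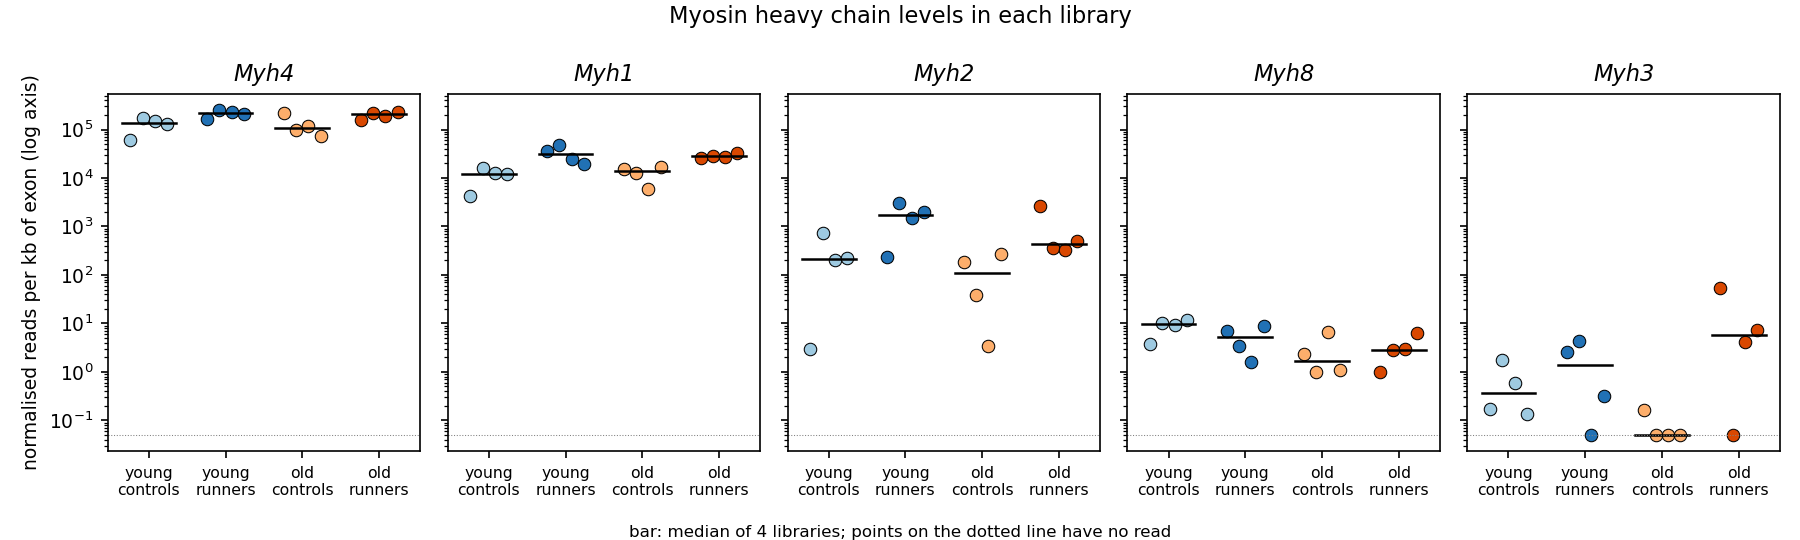
Level of each gene in each library as normalised reads per kilobase of exon, on a log axis, by group (4 points a group, bar at the median, points on the dotted line without a read). Myh4 sits between 61086 and 256145 and Myh1 between 4316 and 47307, while Myh2 spreads from 3.02 to 2991 and Myh8 and Myh3 stay at or below 52.8.

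Myh4, the IIB chain, had 61086, 176684, 147729 and 130019 normalised reads per kilobase in the young controls Yc4, Yc5, Yc7 and Yc8. Young runners Y1ex to Y4ex had 161310, 256145, 228713 and 209978. Yc4 was the lowest of these libraries, 3 of the 4 runners lay above every control, and Y1ex lay within the controls. Old controls Oc1 to Oc4 had 221311, 98482, 118251 and 72478, and old runners O1ex to O4ex 159858, 221323, 194276 and 235049. One old control, Oc1, lay above 2 of the 4 old runners and the other 3 lay below all of them. Group means were 127630 ± 65206 in old controls, 128879 ± 49118 in young controls, 202627 ± 33165 in old runners and 214037 ± 39938 in young runners (SD, n = 4). In that order each pair of neighbouring groups overlapped.

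Myh1, the IIX chain, had 4316, 16045, 12720 and 11964 normalised reads per kilobase in young controls (Yc4, Yc5, Yc7, Yc8) and 36624, 47307, 24872 and 19291 in young runners (Y1ex to Y4ex). In old controls Oc1 to Oc4 it had 15090, 12402, 5816 and 16898, and in old runners O1ex to O4ex 25358, 28102, 27759 and 33205. At both ages every runner lay above every control, as in 4.86% of all genes tested in old mice and 5.71% in young mice. Yc4 and Oc3 were the lowest libraries of their groups, and the old runners were the most even group. The means were 11261 ± 4958 in young controls, 12552 ± 4855 in old controls, 28606 ± 3300.2 in old runners and 32024 ± 12490.1 in young runners (SD, n = 4). Of neighbours in this order, old controls and old runners did not overlap and the other pairs did.

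Myh2, the IIA chain, had 3.02, 748, 205 and 223 normalised reads per kilobase in young controls (Yc4, Yc5, Yc7, Yc8) and 235, 2991, 1499 and 1999 in young runners (Y1ex to Y4ex). Old controls Oc1 to Oc4 had 181, 38.7, 3.36 and 267, and old runners O1ex to O4ex 2612, 353, 321 and 511. It varied more between libraries of a group than any other adult chain. Yc4 and Oc3, the lowest libraries, rested on 21 and 20 reads, and O1ex was far above the other old runners. Old runners lay above old controls without overlap, as in 4.86% of all genes tested. In young mice the runner Y1ex lay below the control Yc5. The means were 123 ± 123 in old controls, 295 ± 318 in young controls, 949 ± 1112 in old runners and 1681 ± 1146 in young runners (SD, n = 4), and neighbours in this order overlapped.

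Running in old mice was tested on the deposited log2 values, with limma over all genes of the table and Benjamini-Hochberg adjustment over them. Myh1 was 1.29 higher in runners (SE 0.29, 95% interval 0.65 to 1.93, adjusted p = 0.102), a 2.28-fold difference of mean normalised reads. Myh2 was 2.43 higher (SE 0.72, interval 0.85 to 4.01, adjusted p = 0.151), 7.74-fold in the means, to which O1ex gave most, and 3.93-fold in the medians. Myh4 was 0.79 higher (SE 0.32, interval 0.08 to 1.49, adjusted p = 0.235), 1.59-fold in the means. None of the 3 passed the threshold of 0.05, which 0.128% of all genes tested did. The groups of Myh1 and Myh2 did not overlap, with runners higher, as in 4.86% of all genes tested. Because RNA came from whole samples, more fibres of a type and more RNA per fibre cannot be told apart.

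Single libraries and weights moved these values. Without Oc1, the old control with the most Myh4, the Myh1 difference was 1.41 and passed (adjusted p = 0.0423 by limma). In that run 295 of 9235 genes passed. The differences of Myh2 (2.72, adjusted p = 0.0784) and Myh4 (1.09, adjusted p = 0.0568) stayed short of the threshold. Without O1ex the Myh2 difference was 1.79 (adjusted p = 0.202). Without Oc4, the control with the least Myh4, the Myh4 difference was 0.56 (adjusted p = 0.339). When limma weighted each library by how well it followed the others of its group, Myh1 (1.68, adjusted p = 0.0120), Myh2 (2.67, adjusted p = 0.0292) and Myh4 (0.95, adjusted p = 0.0400) all passed, together with 688 genes in all.

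In young mice the order of the differences was the same. Myh1 was 1.57 higher in runners (SE 0.41, interval 0.67 to 2.46, adjusted p = 0.0941 by limma), 2.84-fold in the means. Myh2 was 2.80 higher (SE 1.01, interval 0.58 to 5.03, adjusted p = 0.199), 5.70-fold in the means. Myh4 was 0.81 higher (SE 0.33, interval 0.09 to 1.53, adjusted p = 0.234), 1.66-fold in the means. Again none passed, and 0.762% of all genes tested did. Myh1 was the 1 tested chain whose groups did not overlap with runners higher, which held for 5.71% of all genes tested.

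Single libraries moved the young differences in both directions. Without Yc4, the library lowest in Myh4 and Myh1 of all 16 and lowest in Myh2 of the young mice, the differences were 1.16 for Myh1 (adjusted p = 0.0719), 1.81 for Myh2 (adjusted p = 0.235) and 0.48 for Myh4 (adjusted p = 0.306). The Myh2 difference was larger without Y1ex (3.55, adjusted p = 0.138) and without Yc5 (3.50, adjusted p = 0.123). With library weights Myh1 (1.23, adjusted p = 0.0244 by limma) and Myh2 (2.68, adjusted p = 0.0194) passed, among 1394 of 10624 genes that did. The Myh4 difference was then 0.62 (adjusted p = 0.0760). Each group enters 2 of the 4 comparisons, so the tests share libraries and are not independent of each other.

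The running effects at the 2 ages were compared with each other in 1 limma model that joined their 2 tables. A gene without reads has a value of 7.69 in that of old mice and 6.73 in that of young mice. Low values, as in Myh2, were therefore compressed to different degrees. The old effect minus the young effect was -0.28 for Myh1 (SE 0.54, interval -1.42 to 0.86, adjusted p = 0.964), -0.37 for Myh2 (SE 1.37, interval -3.26 to 2.53, adjusted p = 0.987) and -0.03 for Myh4 (SE 0.47, interval -1.02 to 0.97, adjusted p = 0.997). No difference was detectable, and the intervals leave room for one as large as the effects of Myh1 and Myh4 in old mice. Of 9356 genes tested 0% passed by limma (585 had an unadjusted p below 0.05, and 0 passed with voom on the recovered reads). With voom the Myh2 value was -0.014 (SE 2.08).

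**Figure D2:**
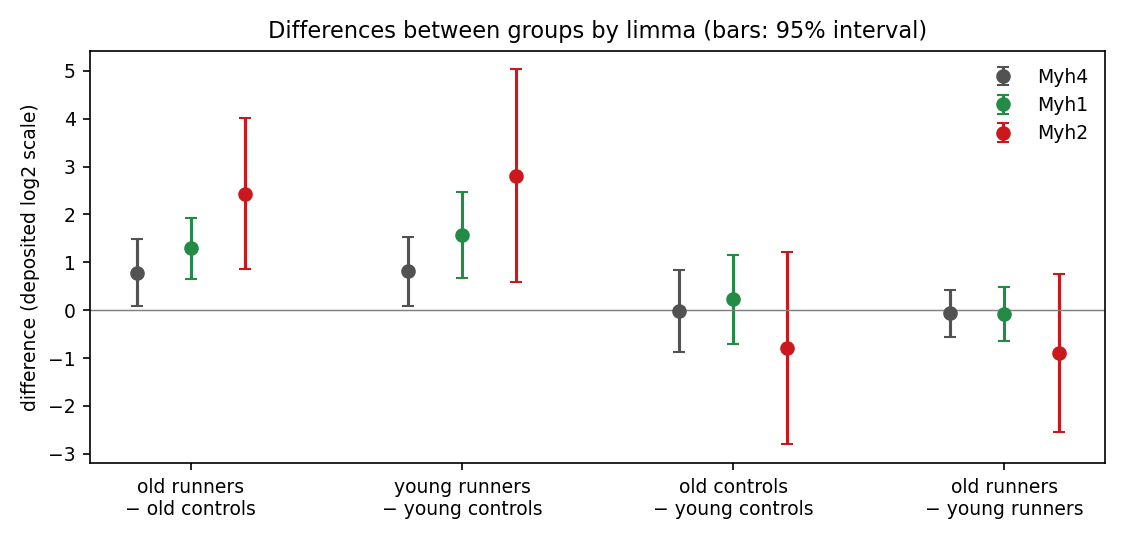
Difference between groups on the deposited log2 scale by limma for Myh4, Myh1 and Myh2, with bars for the 95% interval (4 libraries against 4). The intervals of both running comparisons lie above 0 for each gene before adjustment for the number of genes tested, and those of both age comparisons include 0.

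Age alone showed no detectable difference in the adult chains. Old controls against young controls differed by 0.22 in Myh1 (SE 0.42, interval -0.71 to 1.16, adjusted p = 0.878 by limma), by -0.79 in Myh2 (SE 0.91, interval -2.80 to 1.22, adjusted p = 0.780) and by -0.01 in Myh4 (SE 0.39, interval -0.87 to 0.85, adjusted p = 0.992). The groups overlapped for each, and 0.112% of all 9831 genes tested passed. The direction was not stable for Myh1 and Myh4: the Myh1 difference was -0.18 without Yc4 and -0.37 with library weights, and that of Myh4 turned positive without any 1 of 5 libraries. The Myh2 difference stayed negative in every alternative run, and its size ran from -0.14 without Yc5 and -0.20 without Oc3 to -1.26 without Oc4, -1.66 without Yc4 and -1.84 with library weights (adjusted p = 0.130 to 0.976 by limma over all alternatives). Old runners against young runners differed by -0.08 in Myh1 (SE 0.26), -0.89 in Myh2 (SE 0.75) and -0.07 in Myh4 (SE 0.22), with an adjusted p of 0.9995 each by limma. Here 0.0213% of 9387 genes passed. The intervals were -0.64 to 0.49 for Myh1, -2.53 to 0.75 for Myh2 and -0.55 to 0.42 for Myh4, so a Myh2 difference of several-fold was not detectable at this spread. It ran from -0.48 without Y2ex and -0.59 without O3ex to -1.54 without O1ex, -1.61 without Y1ex and -1.64 with library weights (adjusted p = 0.316 to 0.9998 by limma over all alternatives).

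Levels can rise together without a change in the mixture, so the share of each chain in the summed reads per kilobase of the 5 genes was compared. A share does not depend on the size factor of a library. Myh4 made up 93.4%, 91.3%, 91.9% and 91.4% in young controls (Yc4, Yc5, Yc7, Yc8) and 81.4%, 83.6%, 89.7% and 90.8% in young runners (Y1ex to Y4ex). Each young runner lay below each young control, Y4ex by little, and the means were 86.4% ± 4.58 and 92.0% ± 0.956 (SD, n = 4). The difference of -5.66 percentage points had the smallest p that 4 against 4 can give (p = 0.0286, 2-sided exact permutation test over 70 assignments) and did not pass after adjustment over 12 comparisons of shares (adjusted p = 0.343).

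Myh1 took up most of that difference. Its share was 6.60%, 8.29%, 7.92% and 8.41% in young controls and 18.5%, 15.4%, 9.75% and 8.34% in young runners. Y1ex and Y2ex had the highest shares of these libraries, and Y4ex lay just below Yc8. The means were 7.80% ± 0.832 and 13.0% ± 4.77 (SD, n = 4; exact permutation p = 0.0571, adjusted p = 0.343). Myh2 made up 0.00462%, 0.387%, 0.128% and 0.157% in young controls and 0.119%, 0.976%, 0.588% and 0.864% in young runners. The Myh2 share was highest in Y2ex, Y4ex and Y3ex and overlapped between the groups through Y1ex (exact permutation p = 0.114, adjusted p = 0.457).

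In old mice no difference of the mixture was detectable, and the controls spread more widely than the runners in Myh1 and Myh4. Myh4 made up 93.5%, 88.8%, 95.3% and 80.9% in Oc1 to Oc4 and 85.1%, 88.6%, 87.4% and 87.5% in O1ex to O4ex. Myh1 made up 6.38%, 11.2%, 4.69% and 18.9% in the controls and 13.5%, 11.3%, 12.5% and 12.4% in the runners. Oc4 held the highest Myh1 share of all 16 libraries and Oc3 the lowest, and the old runners lay in a narrow band between them. The means of Myh1 were 10.3% ± 6.34 and 12.4% ± 0.919, and those of Myh4 89.6% ± 6.46 and 87.1% ± 1.47 (SD, n = 4; exact permutation p = 0.457 and p = 0.429, both with an adjusted p of 0.800). Without Oc4 the Myh1 share was 4.98 percentage points higher in runners and the Myh4 share differed by -5.42 percentage points, each with an exact permutation p of 0.0286 and an adjusted p of 0.114. Leaving out other controls made the differences smaller: 0.260 and -0.598 percentage points without Oc3 (exact permutation p = 0.857 and p = 0.800), and 0.823 and -1.19 without Oc1 (p = 0.629 for both).

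Myh2 made up 0.0766%, 0.0349%, 0.00271% and 0.298% in the old controls and 1.39%, 0.142%, 0.144% and 0.190% in the old runners. The difference of 0.364 percentage points (exact permutation p = 0.286, adjusted p = 0.800) was mostly O1ex, and it was 0.0556 without that library. No difference of a share with age was detectable (adjusted p = 0.800 in each of 6 comparisons, exact permutation test). In old controls against young controls the differences were 2.47 percentage points for Myh1, -0.0659 for Myh2 and -2.40 for Myh4. Between runners of the 2 ages they were -0.606, -0.170 and 0.770.

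**Figure D3:**
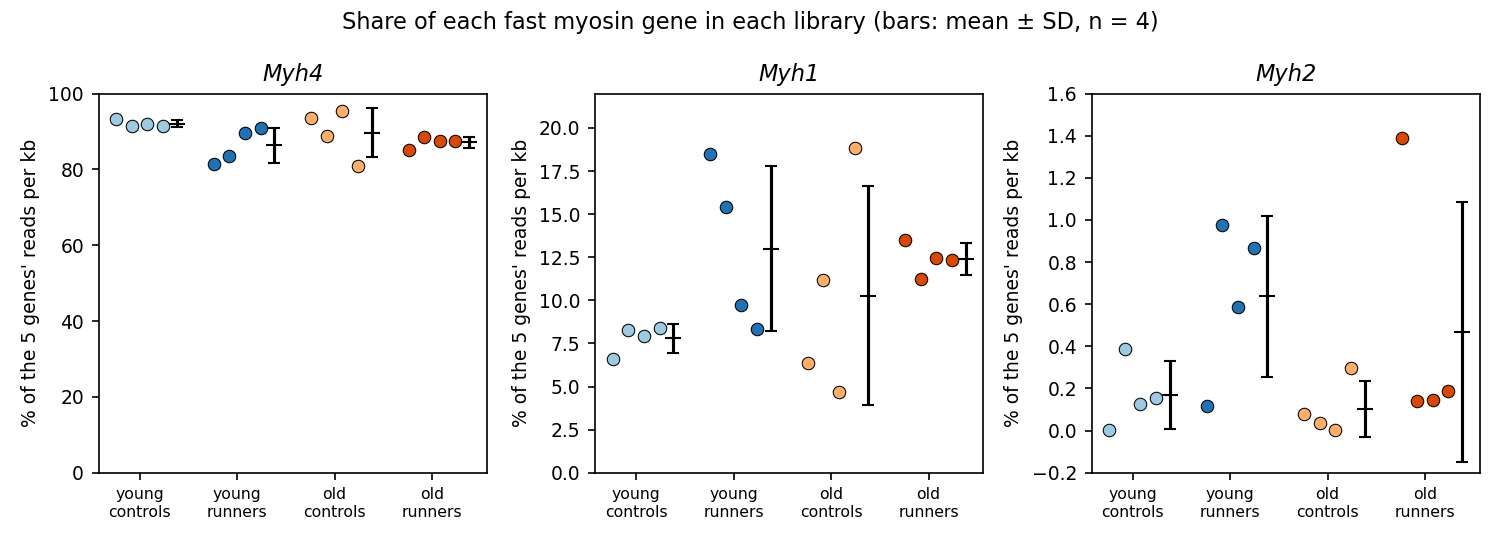
Share of Myh4, Myh1 and Myh2 in the summed reads per kilobase of the 5 genes, in percent, for each library by group (points) with mean ± SD (n = 4) beside them; the axes differ in range. In Myh4, young controls lie between 91.3% and 93.4% and old controls between 80.9% and 95.3%, and O1ex stands alone at 1.39% in Myh2.

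As ratios per kilobase, Myh4 was 10.9 to 14.2 times Myh1 in young controls and 4.40 to 10.9 times in young runners. In old controls the ratio ran from 4.29 in Oc4 to 20.3 in Oc3, and in old runners from 6.30 to 7.88. Myh1 exceeded Myh2 by 9.71-fold in O1ex and 9.65-fold in Y4ex, and by 1429-fold in Yc4 and 1731-fold in Oc3. The ratio of Myh1 to Myh2 therefore spanned far more than that of Myh4 to Myh1.

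The developmental chains were near the lower limit of detection. Myh8, the perinatal chain, had 44, 134, 157 and 175 reads in young controls (Yc4, Yc5, Yc7, Yc8), 65, 44, 17 and 109 in young runners (Y1ex to Y4ex), 28, 13, 64 and 12 in old controls (Oc1 to Oc4) and 7, 47, 43 and 72 in old runners (O1ex to O4ex). Young controls were highest on average, with 8.80 ± 3.48 normalised reads per kilobase against 5.21 ± 3.31 in young runners, 3.24 ± 2.19 in old runners and 2.73 ± 2.60 in old controls (SD, n = 4). Each neighbouring pair in this order overlapped. Myh8 passed the filter on low values only for running in young mice, where the difference was -0.33 (SE 0.25, adjusted p = 0.522 by limma). Without that filter the difference of old from young controls was -0.50 (SE 0.20, adjusted p = 0.495 by limma).

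Myh3, the embryonic chain, had no read in 5 of 16 libraries and passed the filter in no comparison. It had 1, 12, 5 and 1 reads in young controls, 12, 29, 0 and 2 in young runners, 1, 0, 0 and 0 in old controls and 191, 0, 31 and 44 in old runners. In old runners, 3 libraries held more reads than any library of old controls, and O2ex held none although it was sequenced deepest. O1ex, with 30.7 M assigned reads, was the shallowest library and had the most Myh3 and the fewest Myh8 reads. Without the filter the old runners were 0.68 above the old controls on the compressed low end of the log2 scale (SE 0.29, adjusted p = 0.397 by limma).

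Other genes of the cluster were also read. Myh13, the superfast chain of eye and throat muscles, had 0 to 16 reads per library. The long noncoding RNA 2310065F04Rik, known as linc-Myh and read from the minus strand between Myh3 and Myh2 (67112461 to 67120080), had 3833 to 10657 reads. Its normalised reads were 4546 to 10523 in old controls and 6423 to 6850.3 in old runners, and 6172 to 9091 in young controls and 5028 to 6618 in young runners. The groups overlapped, and its differences with running were -0.19 in old mice (adjusted p = 0.690 by limma) and -0.26 in young mice (adjusted p = 0.425).

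Genes known to work with fast myosin were set beside these values as 12 fast fibre partners, light chains, troponins, the calcium pump and Z-disc proteins among them. All 12 were tested in each comparison and none passed. In old mice 9 were higher and 3 lower in runners, with a median of 0.10 against 0.03 over all genes, and the smallest p was that of Actn3, which anchors thin filaments at the Z-disc of fast fibres (0.81, SE 0.21, adjusted p = 0.125 by limma). In young mice 4 were higher and 8 lower (median -0.08, all genes 0.01), led by Tnnt3, fast troponin T (-0.42, SE 0.23, adjusted p = 0.368). Actn3 had 265331 ± 77819 normalised reads in old controls and 450929 ± 32671 in old runners (SD, n = 4), and its groups did not overlap. Old runners lay above old controls without overlap in 4.86% of all genes tested. With age 3 of 12 were higher in controls (median -0.20) and 8 of 12 in runners (median 0.08), with the smallest p in Casq1, the calcium-binding protein of the fast reticulum (-0.46, adjusted p = 0.496), and Mybpc2, fast myosin-binding protein C (0.44, adjusted p = 0.982).

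Of 14 slow fibre partners 8 could be tested in old mice and 9 in young mice, and none passed. With running 7 of 8 were higher in old mice (median 0.35, all genes 0.03) and 7 of 9 in young mice (median 0.30, all genes 0.01). Atp2a2, the calcium pump of slow fibres and heart, had the smallest p in old mice (1.04, SE 0.40, adjusted p = 0.216 by limma) and Tpm3, slow tropomyosin, in young mice (-1.13, SE 0.34, adjusted p = 0.140). Tpm3 differed in the direction opposite to most of its list, with 3984 ± 1186 normalised reads in young controls and 1872 ± 1144 in young runners (SD, n = 4). With age 3 of 8 were higher in controls (median -0.52) and 4 of 8 in runners (median 0.10). Casq2, the counterpart of Casq1 in slow fibres and heart, had the smallest p in controls (1.04, adjusted p = 0.244 by limma). In runners it was Mybpc1, slow myosin-binding protein C (0.40, adjusted p = 0.844).

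Partners of developing or denervated muscle gave 6 of 10 genes to test, of which none passed. In both old and young mice 4 of 6 were higher in runners (medians 0.16 and 0.35). The smallest p was that of Runx1, a transcription factor induced by denervation, in old mice (0.52, adjusted p = 0.353 by limma) and of Ncam1, a cell adhesion molecule of denervated fibres, in young mice (0.55, adjusted p = 0.259). With age Actc1, cardiac actin, differed by -2.39 in old controls (SE 0.83, adjusted p = 0.312), with 10787 ± 7346 normalised reads in young controls and 2121 ± 2547 in old controls (SD, n = 4). In that comparison 4 of 6 were higher (median 0.31), and between runners 2 of 6 (median -0.04), with the smallest p in Myl4, the embryonic light chain (0.45, adjusted p = 0.982).

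Other myosin heavy chains, mostly of nonmuscle and smooth muscle cells, gave 3 of 7 to test. All 3 were higher in old runners (median 0.22) and 2 of 3 in young runners (median 0.68), and none passed. Myh14, a nonmuscle chain, was 0.86 higher in old runners (adjusted p = 0.208 by limma), and Myh10, another, 0.70 higher in young runners (adjusted p = 0.219). All 3 were lower in old than in young mice, with medians of -0.30 in controls, where Myh9 led (-0.72, adjusted p = 0.452), and -0.47 in runners, where Myh10 led (adjusted p = 0.988).

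The 9 genes for the folding and assembly of myosin were all tested, and none passed. In old mice 2 of 9 were higher in runners (median -0.17), with the smallest p in the chaperone Hsp90aa1 (-0.29, adjusted p = 0.408 by limma). In young mice 8 of 9 were higher (median 0.17), led by the chaperone Hsp90ab1 (0.66, SE 0.15, adjusted p = 0.0660). Hsp90ab1 had 32490 ± 4114 normalised reads in young controls and 51331 ± 4367 in young runners (SD, n = 4). These groups did not overlap, with runners higher, as in 5.71% of all genes tested. Hsp90ab1 also had the smallest p with age in controls (0.50, adjusted p = 0.289 by limma), where 9 of 9 were higher in old mice (median 0.26). Between runners 0 of 9 were higher in old mice (median -0.12), with the smallest p in Smyd1, a methyltransferase that helps myosin fold (-0.60, SE 0.13, adjusted p = 0.386).

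Regulators of fibre type, such as the Nfat, Mef2 and PGC-1 family genes, gave 34 or 35 of 38 genes to test in each comparison, and none passed. In old mice 21 of 34 were higher in runners (median 0.09), with the smallest p in Nfix (0.49, SE 0.12, adjusted p = 0.109 by limma), a factor that directs the change from embryonic to fetal muscle genes. In young mice 13 of 35 were higher (median -0.10), with the smallest p in Hdac4, a deacetylase that represses Mef2 factors (-0.57, SE 0.17, adjusted p = 0.130). Mafa, of a family of factors that drive Myh4, had the smallest p with age in controls (-0.72, SE 0.20, adjusted p = 0.229), where 9 of 34 were higher in old mice (median -0.19). Its normalised reads were 2850.2 ± 584 in young and 1584 ± 369 in old controls (SD, n = 4). Prox1, a factor of slow fibres, led between runners (-0.76, SE 0.18, adjusted p = 0.409), with 121.9 to 161 normalised reads in young runners and 1.02 to 50.8 in old runners. In that comparison 17 of 35 were higher in old mice (median -0.01). Prox1 was not among the 34 regulators tested with age in controls, although its levels there differed in the same direction without overlap. It had 44.95 to 328 normalised reads in young controls and 0 to 0.881 in old controls.

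The genes whose log2 levels went most alike with each chain over the 16 libraries were ranked among 8706 genes. The libraries share groups, depth and the length trend, so these Pearson correlations describe the set only. For Myh4 they were Synm (r = 0.963) and Cmya5 (r = 0.951), a filament protein and a large protein of the costamere and Z-disc region, then Igfbp5, Txlnb and Slc38a10, all with r of at least 0.946. For Myh1 they were Gnl3l, Tarsl2, Usp22, Myo18a and Acsl1, with r from 0.890 to 0.896. For Myh2 they were Oplah (r = 0.926), Nfic, Atp6v0a1 and Atg9a, down to r = 0.901. Without the 2 libraries farthest from the median level, r for the first of each was 0.959 for Synm, 0.778 for Gnl3l and 0.864 for Oplah. Between the chains r was 0.834 for Myh1 and Myh2, 0.737 for Myh1 and Myh4 and 0.704 for Myh2 and Myh4, and without the 2 farthest libraries 0.551, 0.578 and 0.553. The merged exons of these 14 genes were 4886 to 16037 bases long, against a median of 4601 over the genes ranked.

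**Figure D4:**
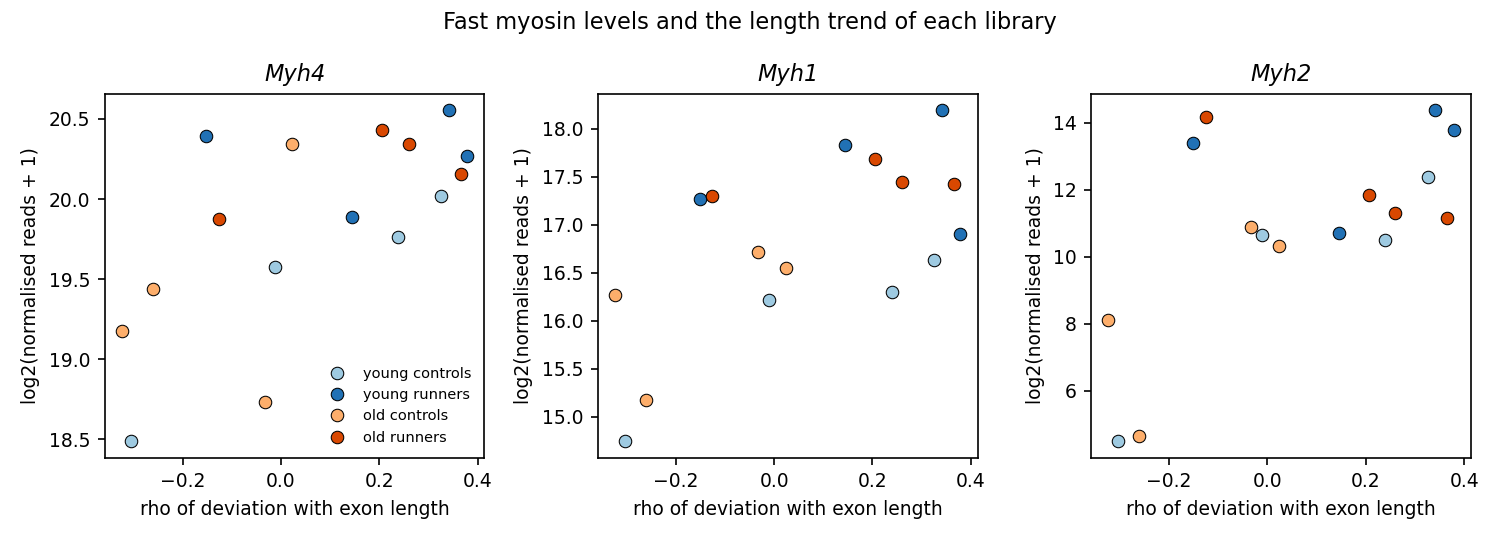
Level of Myh4, Myh1 and Myh2 in each library as log2(normalised reads + 1) against the Spearman rho of that library's deviations with exon length over 10424 genes. Yc4 and Oc3, with rho of -0.30 and -0.26, are the lowest libraries in Myh1 and Myh2. Oc2, with rho of -0.32, is low in Myh2, and its Myh1 level (16.27) lies between those of Yc8 (16.21) and Yc7 (16.30). Of the runners, 6 of 8 have a rho above 0.

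The length trend differed between libraries, and reads of markers of other cells differed between some groups. Of the libraries in which long genes were low, Yc4 (rho -0.30) was the lowest young control in all 3 adult chains, and Oc2 (-0.32) and Oc3 (-0.26) were the 2 lowest old controls in Myh1 and Myh2. O1ex (-0.13) was the lowest old runner in Myh4 and Myh1 and the highest in Myh2. Y3ex (-0.15) lay above every young control in all 3 adult chains. After a smooth trend on exon length had been taken from each library, the differences with running were 1.19 for Myh1, 2.31 for Myh2 and 0.69 for Myh4 in old mice, and 1.51, 2.74 and 0.75 in young mice. None passed (adjusted p = 0.0618 to 0.290 by limma). Summed normalised reads of the 7 of 8 markers of fibro-adipogenic progenitors that could be read were 14.4 to 567 in young controls and 4005 to 11823 in young runners, and 237 to 2003 in old controls and 1950 to 3923 in old runners, with no marker at 0 throughout a group. The 8 endothelial markers summed to 224 to 1065 in young controls, 1566 to 5915 in young runners, 520 to 5121 in old controls and 1035 to 4101 in old runners. The 8 markers of smooth muscle and pericytes summed to 65.7 to 530 in young controls, 722 to 3047 in young runners, 284 to 1722 in old controls, where Myh11 was at 0, and 670 to 3211 in old runners. Markers of satellite cells (5 of 6 read) summed to 4091 to 5921 in young controls and 6189 to 7507 in young runners, and to 2019 to 5524 in old controls, where Pax7 was at 0, and 4759 to 5206 in old runners. The part of these cells in the myosin differences was not tested. For leukocytes (4 of 8 markers read), tenocytes (4 of 6), Schwann cells (5 of 6), erythroid cells (5 of 5) and adipocytes (1 of 5), summed reads overlapped between runners and controls at both ages.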

How the data were processed

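The 4 deposited tables hold log2 values, 1 pair of groups each, which the authors normalised and variance-stabilised with DESeq2. The submitters' processing notes also name Trim Galore, STAR, Subread with featureCounts, and the build mm10. Versions and annotation are not given in the sources used here. Per the labels' protocols, 10 ng of RNA was amplified with SMART-Seq v4. Genes without reads lie at a floor (6.73 to 7.69), near which differences are compressed. Reads were recovered by inversion, and 100% of values came out whole within 0.02. Libraries in 2 tables had identical reads. Normalised reads used median-of-ratios size factors over 10173 genes. Depth limits Myh3, Myh8 and the lowest Myh2 values, and reads without molecular identifiers are not independent molecules.

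Runner columns matched titles, O4ex and Y4ex by elimination. Control columns follow other numbers than the control titles and were matched to their group only.

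Each pair was tested in its table with limma 3.58.1 in R 4.3.3 (eBayes with trend, 2-sided) for genes that exceeded the floor by 1 or more in 4 or more libraries. Shares were tested by the exact permutation test over 70 assignments (Python 3.11.15), adjusted over 12, with no share for Myh7. Scripts were tested on simulated data. Exon lengths came from GENCODE M21 (95.6% of 23222 symbols matched). The members, the 6 pathway lists and the 10 marker lists were chosen with earlier results of these data known. Named genes are the members, the gene of smallest p of each list and comparison, and the 5 genes most like each of Myh1, Myh2 and Myh4 (1 is not reported here). 2310065F04Rik, 9430073C21Rik and Myh13 were added for their position. Alternatives were other filters, scalings, weights and variance settings, voom, removal of a length trend and of each library in turn.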

Additional observations from a re-analysis of the deposited data

Results flagged for a closer look

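In 4 of the 32 sets of 4 libraries examined (levels per kilobase and shares, by group), 1 library lay further from the rest than Dixon's 95% limit for the gap over the range, a limit that chance passes in about 1 of 20 groups. O1ex had 2612 normalised reads per kilobase of Myh2 against 321 to 511 in the other old runners, and a Myh2 share of 1.39% against 0.142% to 0.190%. The same library had 52.8 normalised reads per kilobase of Myh3 against 0 to 7.42 in the others. In old controls, Oc1 was flagged at 0.160 normalised reads per kilobase of Myh3, which is 1 read against 0 in the other 3.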

How the results depend on the processing

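Over all alternatives the differences of Myh1, Myh2 and Myh4 with running stayed positive at both ages. With library weights Myh1 (1.68), Myh2 (2.67) and Myh4 (0.95) in old mice and Myh1 (1.23) and Myh2 (2.68) in young mice passed the threshold. Removing each library in turn gave 0.96 to 1.47 for Myh1 in old mice, past the threshold without Oc1 only. With voom on the recovered reads Myh2 was 3.44 higher in old and 3.42 in young runners. No share passed under any alternative. Values near 0 changed sign. With age in controls, Myh1 was -0.37 with library weights and -0.18 to 0.56 without single libraries, and Myh4 0.013 with the length trend removed and -0.34 to 0.22 without single libraries. The corresponding shares ran from -0.39 to 4.33 (Myh1), -0.13 to 0.0067 (Myh2) and -4.29 to 0.52 percentage points (Myh4). With age in runners, Myh1 was 0.072 with library weights and -0.30 to 0.14 without single libraries, Myh4 -0.20 to 0.041, and the shares -2.16 to 1.22 (Myh1) and -0.88 to 2.25 (Myh4). The old effect minus the young effect ran from -0.61 to 0.13 (Myh1), -1.12 to 0.63 (Myh2) and -0.26 to 0.30 (Myh4). Counts of all genes called moved most. In old mice (12) they were 7 with no filter, 27 with a filter of 2 above the floor, 23 with median centring, 24 with quantile normalisation, 688 with library weights, 4 without a variance trend, 3 with voom and 5 with the length trend removed, and 1 to 295 without single libraries (295 without Oc1, at most 5 otherwise). In young mice (81) they were 24, 143 (median centring), 228 (quantile), 1394 (weights), 47 (no trend), 13 (voom) and 154 (length trend), and 0 to 181 without single libraries (181 without Yc4, at most 25 otherwise). For age in controls (11) they were 3 with no filter, 28 (quantile), 461 (weights), 3 (voom) and 24 (length trend), and 3 to 52 without single libraries (52 without Yc4, at most 6 otherwise). For age in runners (2) they were 7 with weights and 0 to 3 without single libraries, and for the difference between ages (0) they were 0 to 5 (5 without Yc4). The causes were not tested. With the runner number as a replicate block, age in runners gave 0 calls. Same-numbered runners did not deviate together (r = -0.24, 0.09, -0.40 and -0.04 over 9387 genes), so the numbers were not taken as pairs, and control columns share none.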
